A study of Homo sapiens with 12 samples.

Results

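The HOX genes measured here were all genes whose annotated symbol is HOXA, HOXB, HOXC or HOXD followed by a number, each represented by 1 probe of an Illumina HumanHT-12 version 4.0 bead array, the probe with the highest mean over the 12 arrays. There were 29 of them among 20046 genes with a probe: 1 in the HOXA cluster on chromosome 7, 10 in the HOXB cluster on chromosome 17, 9 in the HOXC cluster on chromosome 12 and 9 in the HOXD cluster on chromosome 2. The RefSeq annotation lists 39 such genes. The other 10, all in the HOXA cluster, have no probe in the annotation used and were not analysed here, so the HOXA cluster is seen through HOXA2 alone.

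HOX genes encode homeodomain transcription factors that give cells their position along the head to tail axis. Within each cluster they lie in the order in which they are used along the body, so that a low paralogue number marks an anterior (hindbrain) domain and a high number a posterior (trunk and tail) domain, and low numbers are switched on earlier in development. In embryonic stem cells the clusters are held silent by Polycomb proteins and are opened as cells differentiate, with retinoic acid, WNT and FGF signals as known inducers.

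The arrays held total RNA of human embryonic stem cells (hESCs) grown on mouse embryonic fibroblast feeders in serum-free medium. The groups were 4 NTU1 sublines labelled MEG3-ON, which the study classed by quantitative PCR of the imprinted non-coding RNA MEG3, 5 NTU1 sublines classed in the same way as MEG3-OFF (replicates 5 to 9), 2 H9 samples, also labelled MEG3-OFF, and 1 embryoid body (EB) sample labelled MEG3-ON. NTU1 and H9 are hESC lines. An EB is an aggregate of hESCs left to differentiate in suspension. The labels do not give the day of the EB or the line it came from; by the study's own text it was made from MEG3-ON cells of the NTU1 line. The passage of each subline is not given, so time in culture and MEG3 status cannot be told apart. All arrays were on 1 chip with each group in adjoining positions, so position and group cannot be told apart either. Nothing in the labels ties the sublines to separate derivations, and p-values here measure only the spread between these samples.

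Levels are log2 normalized signals, and a probe was called detected on an array where its detection p-value, which compares it with the array's negative controls, was under 0.01. Between 16864 and 18796 of 47230 probes were detected per array. MEG3 itself lay at 13.15 to 14.12 on the 4 MEG3-ON arrays and at 13.76 in the EB. It lay at 4.97 to 6.30 on the 5 MEG3-OFF arrays, of which 1 detected it, and at 5.10 to 5.15 on the H9 arrays. Since MEG3 chose the groups, this checks the labels only. All 9 pluripotency markers on the list were detected on each of the 11 undifferentiated arrays, and 7 of the 9 were over 2-fold lower in the EB than in MEG3-ON cells.

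Few HOX genes were above background. On at least 1 MEG3-ON array 5 of the 29 were detected (17.2%, against 57.1% of all genes), on at least 1 MEG3-OFF array 6 (20.7%, against 57.7%), on at least 1 H9 array 3 (10.3%, against 55.7%) and in the EB 7 (24.1%, against 55.8%). These shares are not over equal numbers of arrays. Per array, 1, 2, 1 and 5 HOX genes were detected in MEG3-ON cells, 3, 2, 3, 2 and 4 in MEG3-OFF cells, 2 and 2 in H9 cells and 7 in the EB. The 5 of MEG3-ON replicate 4 were the most on an undifferentiated array, and that array also had the most detected probes of the 11, 18390. Without it the MEG3-ON count fell to 2.

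The genes at background were spread unevenly over the clusters. None of the 9 HOXD genes (HOXD1, HOXD3, HOXD4, HOXD8, HOXD9, HOXD10, HOXD11, HOXD12 and HOXD13) was detected on any array, the EB included. In the HOXB cluster HOXB1, HOXB4, HOXB7, HOXB9 and HOXB13 were not detected anywhere, and in the HOXC cluster HOXC4, HOXC5, HOXC9, HOXC10, HOXC11 and HOXC12 were not. Together these were 20 genes with levels between 4.40 and 5.83. With the looser limit of a detection p-value under 0.05, 6 of the 20 passed on at least 1 array. A signal at background sets a limit on what the array could show and does not show that a gene was not transcribed.

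Among the genes at background were HOXB1, the HOXB gene with the lowest paralogue number and a marker of rhombomere 4 of the hindbrain, and HOXD4, a gene of the posterior hindbrain and cervical level. The promoter windows of 12 of the 29 genes (250 bases before to 50 after the start) were found in the RefSeq table (GRCh38.p14), and were searched on both strands for TGACAG, the core letters bound by the HOX cofactors of the MEIS and PKNOX families, and for TGATNNAT, core letters of a HOX and PBX pair. The 4 windows with either are shown because HOXA2, the gene of the 12 that was detected in the EB, is the one that holds both, and the others allow a comparison with genes at background. Capitals mark the matches, and a match on the opposite strand reads ATCAATCA.
HOXA2, chr7:27102634-27102933, minus strand: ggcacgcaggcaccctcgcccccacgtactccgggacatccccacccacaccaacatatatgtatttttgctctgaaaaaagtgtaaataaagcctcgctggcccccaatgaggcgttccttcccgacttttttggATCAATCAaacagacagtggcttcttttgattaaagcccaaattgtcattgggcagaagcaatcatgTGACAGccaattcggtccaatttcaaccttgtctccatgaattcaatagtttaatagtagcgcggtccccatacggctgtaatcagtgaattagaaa
HOXB1, chr17:48530962-48531261, minus strand: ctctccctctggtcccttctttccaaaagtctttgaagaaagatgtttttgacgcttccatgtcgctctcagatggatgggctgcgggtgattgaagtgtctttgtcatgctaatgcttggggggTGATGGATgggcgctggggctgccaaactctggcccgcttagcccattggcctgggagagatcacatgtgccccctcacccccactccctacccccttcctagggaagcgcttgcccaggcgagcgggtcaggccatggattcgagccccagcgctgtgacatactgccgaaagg
HOXD4, chr2:176151300-176151599, plus strand: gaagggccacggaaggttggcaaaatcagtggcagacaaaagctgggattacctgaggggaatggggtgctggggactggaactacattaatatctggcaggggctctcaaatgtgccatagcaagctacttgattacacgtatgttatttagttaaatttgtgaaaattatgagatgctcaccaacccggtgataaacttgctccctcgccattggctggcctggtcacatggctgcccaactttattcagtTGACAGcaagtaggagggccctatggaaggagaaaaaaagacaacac
HOXD11, chr2:176107030-176107329, plus strand: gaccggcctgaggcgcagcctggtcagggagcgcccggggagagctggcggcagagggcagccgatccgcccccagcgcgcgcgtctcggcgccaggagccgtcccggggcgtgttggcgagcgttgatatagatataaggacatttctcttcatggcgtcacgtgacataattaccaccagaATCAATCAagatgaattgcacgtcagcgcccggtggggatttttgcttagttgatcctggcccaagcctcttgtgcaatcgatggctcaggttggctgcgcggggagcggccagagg
TGACAG was found in 2 of the 12 windows and in 15.8% of all 35116 windows of the table, TGATNNAT in 3 of the 12 and in 7.4% of all windows, and both in 1.40% of all windows. The number of CpG dinucleotides in the 12 windows ran from 4 (HOXD4) to 36 (HOXD1), with a median of 21 against 14 over all windows. HOXC4 and HOXC5 share a start in the table and so share a window. HOXA2 and HOXB1 each had 11 CpG, 1 of them detected in the EB and the other not. These are matches of letters, not sites shown to be bound.

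The EB was compared with MEG3-ON cells to see which HOX genes appear on differentiation. With 1 EB array there is no test and no replicate check, and each value below is a description of that array. 6 anterior and middle HOX genes, HOXA2, HOXB2, HOXB5, HOXB8, HOXC6 and HOXC8, had a level over 2-fold above the MEG3-ON mean. These were 6 of the 8 HOX genes that passed the filter (detection in the EB, or on 2 or more arrays of MEG3-ON cells), against 9.09% of 11763 genes over 2-fold higher and 7.75% over 2-fold lower; no HOX gene was over 2-fold lower. A gene that passed because it was detected in the EB was likely to be higher there, so the count is given as a description. The median EB minus MEG3-ON difference on the log2 scale was 1.62 over those 8 genes, 0.04 over all genes passing the filter and 0.04 over all 29 HOX genes. With the 4 genes below background on every MEG3-ON array put at the lowest difference they allow, the median was 1.23 and 5 genes were over 2-fold higher. With the values normalized by the authors 4 were, and the median was 1.02.

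HOXB2, which patterns the hindbrain from rhombomere 3 backwards in the mouse, had the highest HOX level of the EB. It read 8.75 there, against 4.85, 5.22, 4.94 and 4.65 on the MEG3-ON arrays, 5.08, 5.01, 4.60, 4.76 and 4.84 on the MEG3-OFF arrays and 4.86 and 4.70 on the H9 arrays. The EB stood apart from 11 arrays that were all below background. HOXB2 was therefore at least 7.54-fold higher in the EB than in MEG3-ON cells; here and below, a gene not detected on any MEG3-ON array is given a bound, the EB level against the mean of the lowest level among detected probes of each MEG3-ON array (or the gene's own level where that is higher).

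HOXA2, the HOX gene with the most anterior domain in the mouse hindbrain, read 6.94 in the EB, against 5.18, 5.79, 5.33 and 5.23 in MEG3-ON cells, 5.28, 5.47, 5.04, 5.45 and 5.51 in MEG3-OFF cells and 5.20 and 5.29 in H9 cells. It was at least 2.15-fold higher in the EB and below background elsewhere. Its second probe gave the same picture at 6.64 in the EB and 4.61 to 5.08 on the 11 other arrays, at least 1.75-fold higher. HOXB8, a trunk-level gene, read 7.20 in the EB, and 4.53 to 4.95 in MEG3-ON cells and 4.57 and 4.60 in H9 cells, which put it at least 2.58-fold higher than in MEG3-ON cells. HOXA2, HOXB2 and HOXB8 were the 3 genes detected in the EB and on no undifferentiated array, 10.3% of the 29, against 2.4% of all genes.

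HOXB5, expressed in the trunk and in the enteric nervous system, read 8.02 in the EB and 5.83 ± 0.08 (SD, n = 4) in MEG3-ON cells, where 1 of 4 arrays detected it. The log2 difference was 2.19 (4.55-fold). HOXC6, a thoracic-level gene, read 8.24 in the EB and 6.56 ± 0.13 (SD, n = 4) in MEG3-ON cells, a log2 difference of 1.68 (3.21-fold). HOXC6 was the HOX gene detected on all 12 arrays. HOXC8, another thoracic-level gene, read 6.57 in the EB against 5.43, 5.02, 4.65 and 5.60 in MEG3-ON cells, at least 1.66-fold higher.

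The remaining pair that passed the filter was not higher in the EB. HOXB3, a hindbrain and pharyngeal arch gene, read 5.71 in the EB and 5.79 ± 0.26 (SD, n = 4) in MEG3-ON cells. The second probe of HOXB3 read 4.90 in the EB and was not detected there. HOXB6 read 5.20 in the EB, not detected, and 5.78 ± 0.13 (SD, n = 4) in MEG3-ON cells, of which 2 arrays detected it. The probes of HOXB6 disagreed: its second probe read 6.21 in the EB, detected, and 5.49 on average in MEG3-ON cells, not detected, at least 1.30-fold higher in the EB. HOXB7, which lies between HOXB6 and HOXB8, read 5.19 in the EB and 4.40 to 4.58 on the 11 undifferentiated arrays without passing the detection limit (detection p-value 0.0909).

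**Figure D1:**
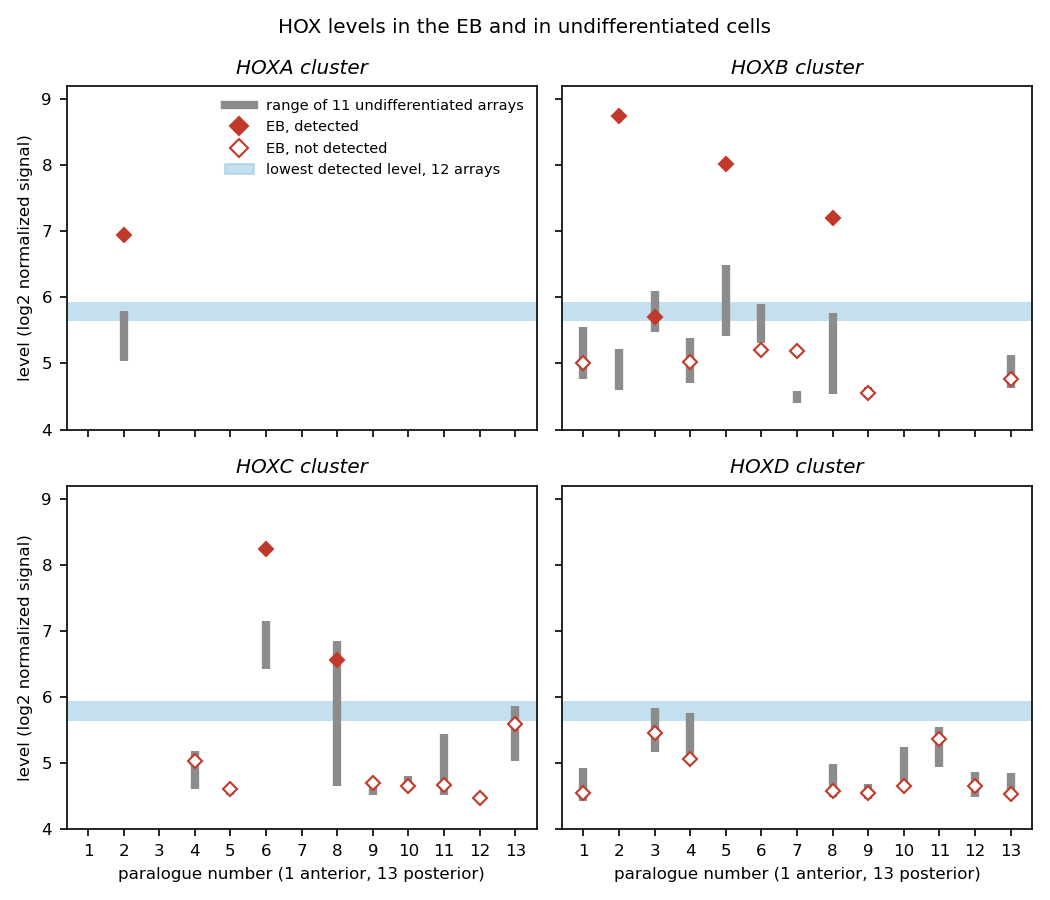
Level (log2 normalized signal) of the 29 HOX genes against paralogue number, 1 panel per cluster: grey bars span the 11 undifferentiated arrays, diamonds show the EB (filled where detected), and the blue band spans the lowest detected level of the 12 arrays (5.64 to 5.93). The detected EB values lie at paralogue numbers 2 to 8 in HOXA, HOXB and HOXC. HOXD and all numbers from 9 to 13 stay below the detection limit in the EB, HOXC13 narrowly.

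Read along the axis, the EB had 3 of 6 genes detected with paralogue numbers 1 to 3 (HOXA2, HOXB2 and HOXB3), 4 of 11 with numbers 4 to 8 (HOXB5, HOXB8, HOXC6 and HOXC8) and 0 of 12 with numbers 9 to 13. By cluster it had the 1 HOXA gene, 4 of 10 HOXB genes, 2 of 9 HOXC genes and 0 of 9 HOXD genes. HOXB3 and HOXC6 counted by their brightest probe, and their other probes were not detected in the EB. Detection did not run without gaps within a cluster: HOXB1, HOXB4, HOXB6 by its brighter probe, and HOXB7 were below the limit while HOXB2, HOXB3, HOXB5 and HOXB8 were above it. Levels of different genes come from different probes and are not ranked against each other as amounts of RNA.

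Some markers of other cell types were also higher on the EB array. Over 2-fold higher in the EB than in MEG3-ON cells were 5 of 8 neural markers (PAX6, a neural progenitor factor, 35.2-fold, with SOX1 and ZIC1 not detected), 3 of 11 mesoderm markers (HAND1 40.3-fold, with TBXT, MIXL1 and TBX6 not detected), 5 of 7 endoderm markers (APOA1 18.4-fold, with SOX17 and GATA6 not detected) and 4 of 8 fibroblast and stromal markers (COL3A1 at least 26.2-fold). The same held for 2 of 6 neural crest, 2 of 7 trophoblast and amnion and 3 of 5 cardiac markers. The neural crest marker FOXD3 went the other way. It was detected on all 4 MEG3-ON arrays, at 6.63 on average, and not in the EB, at 4.85. These marker counts are over markers with a probe. Of all genes passing the filter, 9.09% were over 2-fold higher in the EB. COL3A1 and some other markers passed that filter through the EB alone, where they were higher, so the counts are only a description. The summed normalized signal of the neural markers was 6685 in the EB against 1622 to 2005 in MEG3-ON cells, that of the stromal markers 21180 against 6460 to 8969, that of the mesoderm markers 4203 against 366.5 to 785.4 and that of the endoderm markers 2163 against 319.1 to 578.5. Such sums follow their brightest markers. HAND1 made up most of the mesoderm sum in the EB, where 3 of the 11 mesoderm markers were detected. HAND1 read 11.86 there and 6.53 ± 1.62 (SD, n = 4) in MEG3-ON cells, a wide spread. It reached 9.51 on a MEG3-OFF array. The part of cell composition in the HOX values was not tested, and in such a bulk sample more cells of a type and more RNA per cell cannot be told apart.

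**Figure D2:**
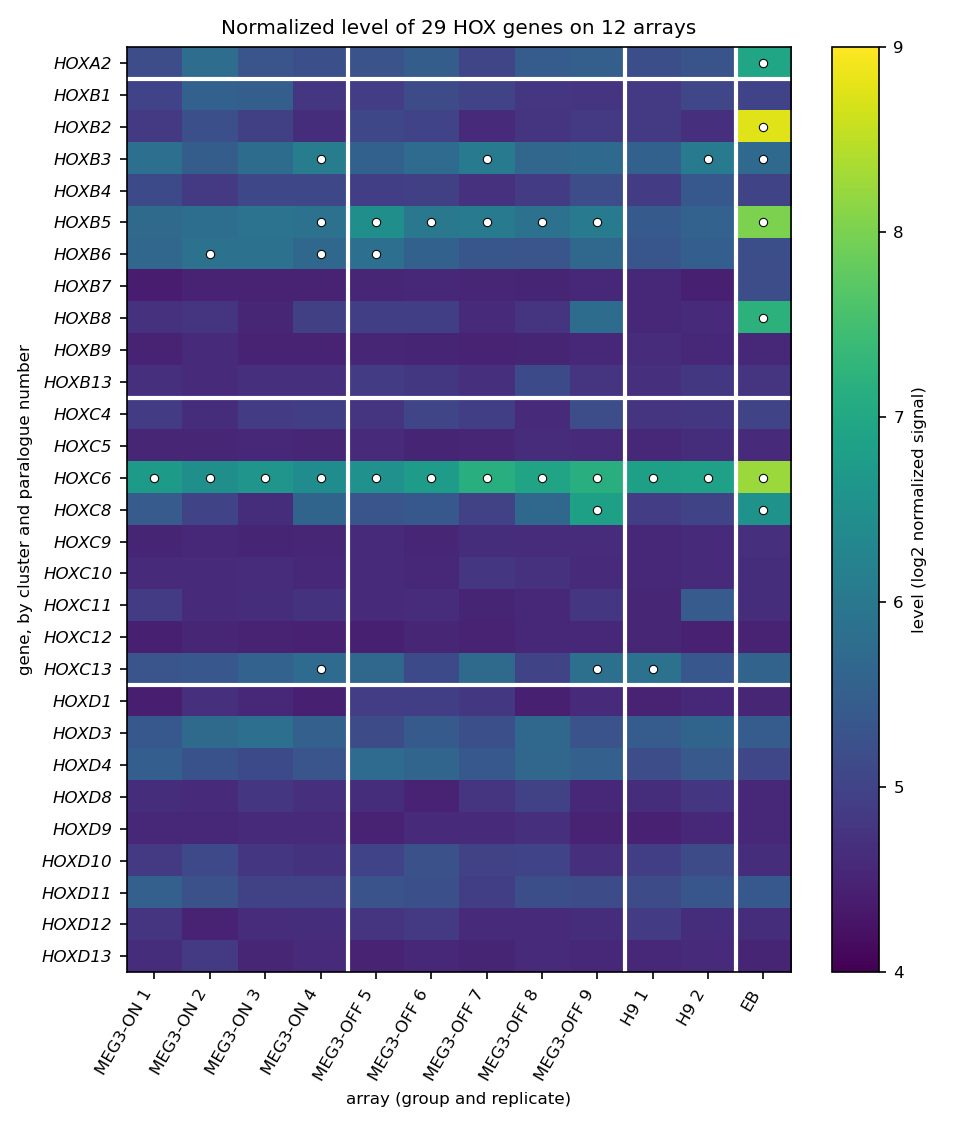
Level (log2 normalized signal, colour scale) of the 29 HOX genes, in rows by cluster and paralogue number, on each of the 12 arrays in columns; white circles mark detected values. The EB column holds 7 circles, HOXC6 is the row marked on every array, and the HOXD rows hold no circle.

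In undifferentiated cells 6 HOX genes were detected on at least 1 array: HOXB3, HOXB5, HOXB6, HOXC6, HOXC8 and HOXC13. The study set MEG3-OFF against MEG3-ON sublines to find what differs with the silencing of MEG3, and that comparison could test 2 of the 6, HOXB5 and HOXC6, since the other HOX genes were detected on fewer than 4 of the 9 NTU1 arrays. Neither passed limma with Benjamini-Hochberg adjustment over 10775 genes, where 1.85% of genes were called higher and 1.74% lower in MEG3-OFF cells. HOXC6 had an unadjusted limma p under 0.05, as did 2404 of the 10775 genes.

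HOXC6 read 6.72, 6.48, 6.60 and 6.42 on the MEG3-ON arrays, 6.54, 6.77, 7.15, 6.92 and 7.13 on the MEG3-OFF arrays and 6.84 and 6.86 on the H9 arrays. The NTU1 groups overlapped through MEG3-OFF replicate 5, and the other MEG3-OFF arrays were above all MEG3-ON arrays. The log2 difference was 0.34 ± 0.14 (SE; 95% interval 0.04 to 0.64, adjusted p = 0.174 in limma). Without MEG3-OFF replicate 5 it was 0.43 with a limma adjusted p of 0.0477. Over the 16 alternatives tried the adjusted p ran from 0.0477 to 0.365, so that 1 array decides on which side of the threshold HOXC6 lies. The signal came from 1 of 4 HOXC6 probes: the other 3 were below background on all 12 arrays, among them a second probe annotated to the same transcript.

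HOXB5 read 5.73, 5.81, 5.91 and 5.86 on the MEG3-ON arrays, of which the last was detected, and 6.49, 6.00, 6.04, 5.89 and 6.06 on the MEG3-OFF arrays, all detected. The groups overlapped narrowly. The log2 difference was 0.27 ± 0.13 (SE; 95% interval -0.01 to 0.54, adjusted p = 0.233 in limma). On the H9 arrays HOXB5 read 5.41 and 5.58, both below background and below every NTU1 array.

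H9 was compared with each NTU1 group to see how far a line of another origin differs. Of 5 HOX genes tested among 11583, 1 was called against MEG3-OFF cells: HOXB5 was lower in H9 cells by 0.60 ± 0.16 on the log2 scale (SE; 95% interval -0.94 to -0.26, adjusted p = 0.0127 in limma). The difference was -0.29 with the authors' values (adjusted p = 0.0489 in limma) and -0.29 without background correction (adjusted p = 0.049), and HOXB5 passed the filter through NTU1 arrays alone, where it is higher. Background calls in that comparison were 13.2% of genes higher and 18.2% lower in H9, so 1 of 5 HOX genes is near the share of all genes. Since HOXB5 was not detected in H9, its MEG3-OFF mean of 6.10 was at least 1.24-fold above H9. The call was lost without either H9 array, with limma adjusted p of 0.0835 without replicate 1 and 0.0751 without replicate 2. Against MEG3-ON cells none of the 5 was called (12% of genes higher, 17.1% lower). Of the 5, only HOXB6 had an unadjusted limma p under 0.05, as did 4844 of the 11583 genes. Its log2 difference was -0.37 ± 0.17 (SE, adjusted p = 0.111 in limma). HOXB6 also passed the filter through NTU1 arrays alone, where it is higher. The second HOXB6 probe went the other way, at 5.62 on average in H9 cells and 5.49 in MEG3-ON cells. The H9 arrays are shared by both comparisons. HOXC6 differed between H9 and MEG3-OFF by -0.05 on the log2 scale (95% interval -0.42 to 0.31) and between H9 and MEG3-ON by 0.29 (95% interval -0.09 to 0.67).

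The other genes seen in undifferentiated cells stayed near the detection limit. HOXB3 read 5.47 to 6.10 over the 11 arrays and was detected on 1 array of each group. Its detected probe is annotated to a cDNA clone, and its second probe, annotated to the RefSeq transcript, was at 4.51 to 4.76 on the same arrays. HOXB6 read 5.66, 5.89, 5.89 and 5.69 in MEG3-ON cells, 5.83, 5.55, 5.33, 5.32 and 5.70 in MEG3-OFF cells and 5.34 and 5.49 in H9 cells, and was detected on 3 of these arrays. HOXC13, the most posterior gene of its cluster and known for its part in hair and nail formation, read 5.03 to 5.87 over the 11 arrays and 5.59 in the EB, and was detected on 1 array of each undifferentiated group.

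HOXC8 was detected on 1 undifferentiated array, MEG3-OFF replicate 9, at 6.84, above the EB value of 6.57. The other MEG3-OFF arrays read 5.32, 5.38, 4.98 and 5.66, and the H9 arrays 4.91 and 5.03. HOXB8, its paralogue in the HOXB cluster, was highest on the same array at 5.76 (detection p-value 0.0104) and read 4.93, 4.92, 4.61 and 4.78 on the other MEG3-OFF arrays. After these values had been seen, the excess of that array over the highest of the other 10 undifferentiated arrays was computed for every gene: of 20046 genes HOXC8 had the largest excess, 1.18 on the log2 scale, and HOXB8 ranked 3 with 0.81. With the values normalized by the authors the ranks were 3 and 11. HOXD8, the third paralogue of that number, read 4.56 there and did not exceed the others. On no other undifferentiated array but H9 replicate 2 (HOXC11, 0.57) did a HOX gene exceed the rest by more than 0.5. Of 52 genes with a probe on the marker lists other than pluripotency, 7 lay above the range of the other MEG3-OFF arrays on MEG3-OFF replicate 9. Another 34 lay within it and 11 below it. The 7 were AFP, DCX, FOXD3 and KDR, which were detected there, and DCN, POSTN and TFAP2B, which were not, and the largest excess was 0.22 on the log2 scale (TFAP2B). On the pluripotency list, TDGF1 and NANOG also lay above the range of the other MEG3-OFF arrays there, and DPPA4 lay below it. TDGF1 read 8.43 against at most 7.905. The part of all these markers in the HOXC8 and HOXB8 values was not tested.

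**Figure D3:**
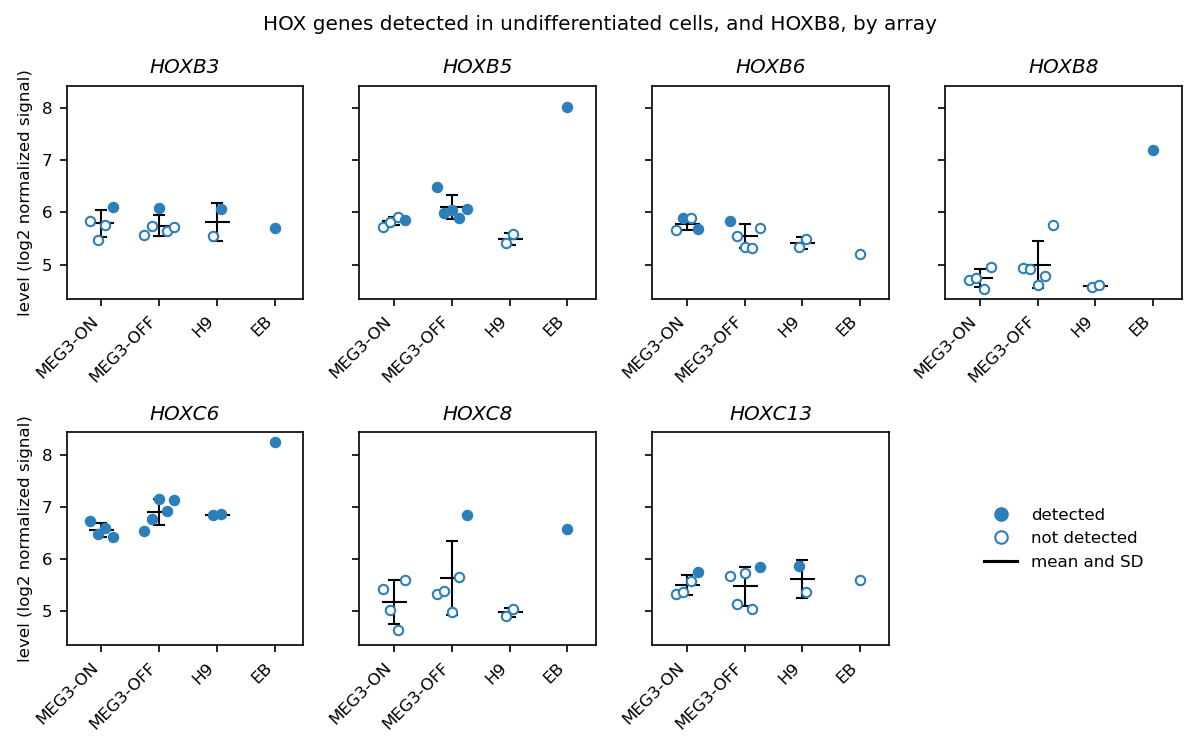
Level (log2 normalized signal) on each array of the 6 HOX genes detected in undifferentiated cells, and of HOXB8; filled points are detected, and bars give the mean and SD of groups with over 1 array. HOXC6 and HOXB5 are highest in the EB, MEG3-OFF replicate 9 stands above its group for HOXB8 and HOXC8, and HOXB3, HOXB6 and HOXC13 stay near the detection limit.

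The TALE homeodomain proteins (PBX, MEIS and PKNOX families) bind DNA together with HOX proteins and sharpen their choice of sites. All 8 with a probe were detected in the EB, with a median log2 difference of 1.02 to MEG3-ON cells. Of these, 4 were over 2-fold higher and 0 over 2-fold lower, against 9.09% and 7.75% of all genes passing the filter. MEIS2 showed the largest difference, from 5.77 ± 0.48 (SD, n = 4), detected on 1 MEG3-ON array, to 10.14 in the EB (20.6-fold). It passed the filter through the EB alone, where it was higher, so the count is only a description. MEIS1 was 5.96-fold, PKNOX2 3.07-fold and MEIS3 2.46-fold higher. PBX2 and PBX3 were high in all groups, at 10.50 and 10.99 on average in MEG3-ON cells. Between the undifferentiated groups 1 of 7 tested was called in MEG3-OFF against MEG3-ON, where 1.74% of all genes were called lower. PKNOX2 was lower in MEG3-OFF cells, with a log2 difference of -0.99 (adjusted p = 0.0322 in limma). In H9 against MEG3-ON, limma called 3 of 7 lower, against 17.1% of all genes. These were PKNOX2 (log2 difference -0.98, adjusted p = 0.0207 in limma), PBX3 (-0.56, adjusted p = 0.0307) and PBX2 (-0.50, adjusted p = 0.0185). None of 7 was called in H9 against MEG3-OFF.

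Retinoic acid is made by the ALDH1A enzymes, degraded by the CYP26 enzymes and read by RAR and RXR receptors, and anterior HOX genes are among its known targets. Of 17 pathway genes with a probe, 13 passed the filter, with a median log2 difference of 1.04. In the EB 7 of them were over 2-fold higher and 1 lower, against 9.09% and 7.75% of all genes passing the filter. The 3 ALDH1A enzymes were among those higher: ALDH1A3 7.63-fold, ALDH1A1 5.66-fold and ALDH1A2 3.12-fold. RDH10, another gene of the list, was 1.16-fold higher. Of the 7, 3 were below background on all MEG3-ON arrays and carry bounds under 2-fold: STRA6, the receptor for retinol uptake, was at least 1.80-fold higher, CYP26B1 at least 1.46-fold and CYP26C1 at least 1.19-fold. These 3 passed the filter through the EB alone, where they were higher, so the count is only a description. DHRS3, a reductase that lowers retinaldehyde, was the 1 gene lower, from 10.34 to 7.49, a log2 difference of -2.84. CYP26A1 read 12.76 in MEG3-ON cells and 11.94 in the EB. In MEG3-OFF against MEG3-ON, 1 of 10 was called, ALDH1A2, with a log2 difference of -0.57 (adjusted p = 0.03 in limma). Over all genes 1.74% were called lower there. In H9 cells 1 of 10 genes was higher and 3 lower than in MEG3-OFF cells, against 13.2% and 18.2% of all genes. Against MEG3-ON cells 1 of 10 was higher and 5 lower in H9, against 12% and 17.1% of all genes. ALDH1A3 was the higher gene in both, with limma log2 differences of 1.24 against MEG3-OFF cells (adjusted p = 0.00276) and 1.78 against MEG3-ON cells (adjusted p = 3.22e-04). The lower ones were RARA, RXRA and CRABP2 in both, with ALDH1A2 and CYP26A1 added against MEG3-ON cells.

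Of genes of the posterior growth zone, where trunk HOX genes are first switched on in the embryo, 13 have a probe. Of these 5 passed the filter, and 4 were over 2-fold higher in the EB, against 9.09% of all genes passing the filter. These 4 passed through the EB alone, where they were higher, so the count is only a description. FGF8 was at least 5.21-fold higher in the EB, WNT3A at least 4.35-fold and CDX2, a homeodomain activator of trunk HOX genes, at least 1.23-fold (2.59-fold by its measured values, with MEG3-ON cells below background). SP5, a WNT target, was 6.05-fold higher. TBXT, TBX6, MSGN1, CDX1 and CDX4 were not detected in the EB. CDX2 was also the 1 of 8 ParaHox and even-skipped genes detected in the EB; the others, GSX1, GSX2, PDX1, CDX1, CDX4, EVX1 and EVX2, were at background there. FGF8 was detected on both H9 arrays and on no NTU1 array. It passed the filter of the H9 comparisons through H9 alone, where it is higher. Limma tested 2 genes of the list there. Against MEG3-OFF cells FGF8 was called higher in H9 (log2 difference 0.89, adjusted p = 0.00638 in limma). GDF11, a ligand known to set the position of trunk HOX domains in the mouse, was called lower (-1.12, adjusted p = 0.0041 in limma). Over all genes 13.2% were called higher and 18.2% lower. Against MEG3-ON cells FGF8 was again higher (0.79, adjusted p = 0.0124 in limma) and GDF11 lower (-1.35, adjusted p = 0.00154). Over all genes these shares were 12% and 17.1%.

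**Figure D4:**
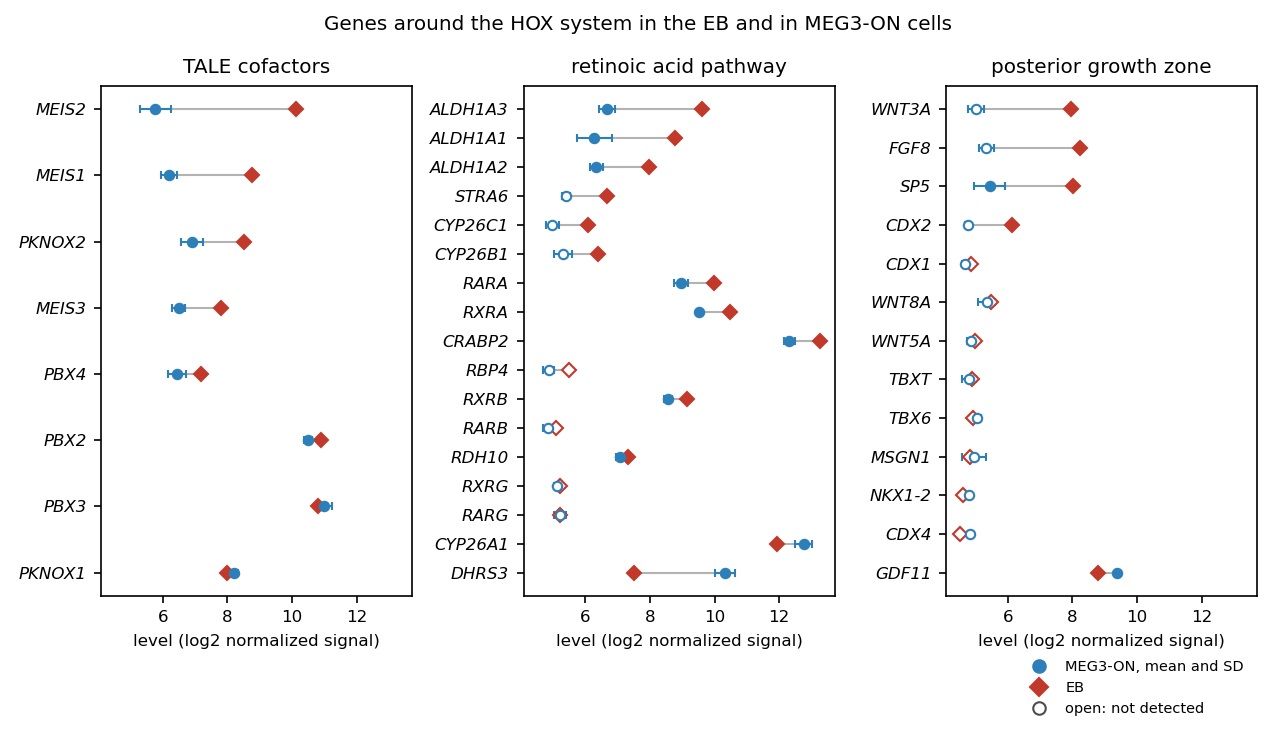
Level (log2 normalized signal) in MEG3-ON cells (circles, mean and SD of 4 arrays) and in the EB (diamonds, 1 array) for TALE cofactors, retinoic acid genes and posterior growth zone genes; an open circle was not detected on any MEG3-ON array and an open diamond not in the EB. MEIS2 has the longest line of its panel (5.77 to 10.14), and DHRS3 is the retinoic acid gene that lies over 2-fold lower in the EB.

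The genes next to the clusters were measured to describe the neighbourhood. Of 24 genes that flank the clusters, 19 passed the filter, 0 were over 2-fold higher in the EB and 2 over 2-fold lower, NFE2L1 (log2 difference -1.23) and HNRNPA1 (-1.43), with a median of -0.03. Limma called none of 18 in MEG3-OFF against MEG3-ON. In H9 against MEG3-OFF it called 3 higher (ATF2, HNRNPA1 and ATP5MC3) and 1 lower (NFE2), against 13.2% and 18.2% of all genes. In H9 against MEG3-ON it called 1 higher (ATP5MC3), against 12% of all genes. EVX1 and EVX2, which lie at the posterior ends of the HOXA and HOXD clusters, were at background on all arrays. Of the non-coding genes of the clusters, 8 of the 25 listed have a probe. HOTTIP, transcribed from the posterior end of the HOXA cluster, was detected on every array, at 6.22 ± 0.21 (SD, n = 4) in MEG3-ON cells, 6.35 ± 0.19 (SD, n = 5) in MEG3-OFF cells and 6.16 in the EB. HOTAIR, HOXA11-AS and the probes of MIR10A, MIR10B, MIR196A1, MIR196A2 and MIR196B were at background on all arrays. The labelling kit primes on polyadenylated RNA, and mature microRNAs were not measured.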

How the data were processed

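The members and all gene lists were chosen with earlier results of these data known. The intensity of each probe (mean bead signal, without background subtraction) and its detection p-value were deposited by the authors without normalization, with no export software given in the sources used here. A second deposited table holds intensity values that the authors log transformed and quantile normalized over the 12 arrays in Partek, returned to a linear scale; it was used as an alternative. Of 47230 probes, 30113 have 1 gene symbol in the platform annotation, 8 several and 17109 none; 6691 genes have several probes, of which the brightest on average was kept, following the authors.

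From these, limma's neqc gave log2 levels: normexp background correction with negative controls inferred from detection p-values, an offset of 16 and quantile normalization (limma 3.58.1, R 4.3.3). Figures were drawn in Python 3.11.15 with matplotlib 3.10.9. Background correction spreads low values, so differences near background depend on it. MEG3-OFF against MEG3-ON was fitted with lmFit and eBayes on the 9 NTU1 arrays over genes detected on at least 4 of them, and H9 against either group on the 11 undifferentiated arrays in 3 groups over genes detected on at least 2, p-values being adjusted by Benjamini-Hochberg over every gene in the fit and called under 0.05. The scripts were tested on simulated data. The number of arrays limits the precision: 1 for the EB, 2 for H9.

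Named were all HOX members, with every array's value or range for those detected on an undifferentiated array or in the EB. Genes of other lists were named where limma called them. For the EB, those among the 5 largest over 2-fold differences of a list were named too. A few at background or high in all groups, and HOXB7, HOXD8, STRA6, CYP26A1 and RDH10, were added after their values were seen. The check of marker lists used the same rules. Alternatives were the authors' normalized values, no background correction, other filters, limma with trend and robust options, every probe, the methods' t-test and leaving out each array.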

Additional observations from a re-analysis of the deposited data

Results flagged for a closer look

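Each of the 9 HOX genes detected on any array was examined for a sample far from the others within the MEG3-ON and the MEG3-OFF arrays, 18 groups in all, of which chance gives about 5%. In 2 of them 1 array lay apart. HOXB8 read 5.76 on MEG3-OFF replicate 9, with the nearest of the other 4 arrays at 4.93, and HOXB5 read 6.49 on MEG3-OFF replicate 5, with the nearest at 6.06. The gap was 0.725 of the group's range for HOXB8 and 0.71 for HOXB5, the latter at the limit itself. HOXC8 on MEG3-OFF replicate 9 fell short of that limit.

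A signal in the EB above that in MEG3-ON cells was also seen with 2 probes that were not used for the gene values. The second probe of HOXA2 read 6.64 in the EB and at most 5.01 on the MEG3-ON arrays, and the second probe of HOXB6 read 6.21 in the EB and at most 5.76 on the MEG3-ON arrays.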

How the results depend on the processing

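The count of HOX genes called in MEG3-OFF against MEG3-ON (0) was the same in 17 of 18 alternatives and ran from 0 to 1 with single arrays left out; the 1 was HOXC6 without MEG3-OFF replicate 5 (0.43, adjusted p = 0.0477 in limma). In H9 against MEG3-OFF the count (1, HOXB5) was the same in 11 of 13 alternatives and ran from 0 to 1, with 0 without either H9 array, where limma's adjusted p for HOXB5 was 0.0835 or 0.0751 (0.011 to 0.049 in the other 11) and an arm of 1 sample is assumed to vary like the other groups. In H9 against MEG3-ON the count was 0 in all 12 alternatives. Small differences without a call changed sign with single arrays left out: against MEG3-OFF, HOXB3 ran from -0.20 to 0.32, HOXC13 from -0.12 to 0.39 and HOXC6 from -0.14 to 0.0086 (0.0086 without MEG3-OFF replicate 7 and 0.0037 without replicate 9), and against MEG3-ON, HOXB3 ran from -0.24 to 0.28 and HOXC13 from -0.14 to 0.37.

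With a detection p-value under 0.05, 11 HOX genes were detected in MEG3-ON, 10 in MEG3-OFF and 9 in H9 cells, against 5, 6 and 3, and 10 in the EB against 7 (HOXC13, HOXD3 and HOXD11 were added). With 1 array left out the MEG3-ON count ran from 2 to 5 (2 without replicate 4) and the MEG3-OFF count from 4 to 6. The count over 2-fold higher in the EB was 6 in 8 of 10 alternatives and 4 with the authors' values or without background correction. The median EB difference of 1.62 was 1.02 with the authors' values, 1.02 without background correction, 0.043 over all 29 genes, and 1.61 to 1.69 with 1 MEG3-ON array left out. Chosen after seeing the data, the rank of HOXC8 on MEG3-OFF replicate 9 was 3 with the authors' values and 3 without background correction, and that of HOXB8 was 11 and 13; the cause was not tested. Signals near background limit 20 of the 29 genes to an upper bound. No paired analysis was possible because the MEG3-ON and MEG3-OFF sublines share no replicate numbers, and those that H9 shares with MEG3-ON name samples of different lines.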
